A study of Homo sapiens with 6 samples.

Results

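The APOBEC3 genes encode cytidine deaminases and stand side by side on chromosome 22. All 7 listed symbols (APOBEC3A, APOBEC3B, APOBEC3C, APOBEC3D, APOBEC3F, APOBEC3G and APOBEC3H) were found by exact match of the gene name among the 27945 genes of the deposited table. They were measured in HaCaT cells, an immortalised human keratinocyte line, by poly-A RNA sequencing. The groups were knockout cells given IL-1α for 4 h (2 libraries), unstimulated knockout cells given PBS for 4 h (1 library), wild-type cells given IL-1α for 4 h (2 libraries) and unstimulated wild-type cells given PBS for 4 h (1 library). Knockout cells carry a null genotype for MAPK14, which encodes the stress-activated kinase p38α. The labels describe neither the edit nor whether the knockout line is 1 clone, and they do not say that replicates came from separate cultures, so p-values measure the spread between these libraries alone. The family was chosen by measured values, namely the lower APOBEC3A level in knockout than in wild-type cells under IL-1α; APOBEC3A levels are therefore described without a test, and tests are given for the other members.

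APOBEC3 enzymes convert cytosine to uracil in single-stranded DNA. They restrict retroviruses, papillomaviruses, hepatitis B virus and retrotransposons, and APOBEC3A and APOBEC3B also leave mutations in the genomes of epithelial tumours. Each enzyme holds either a single zinc-binding deaminase domain (APOBEC3A, APOBEC3C and APOBEC3H) or a pair of them, of which the carboxy-terminal one is catalytic (APOBEC3B, APOBEC3D, APOBEC3F and APOBEC3G). In myeloid cells APOBEC3A is a strongly interferon-induced gene, while APOBEC3B is linked to proliferation and to NF-κB signalling in epithelial cells. IL-1α is an alarm cytokine of the epidermis that acts through NF-κB and the MAP kinases, p38α among them.

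The catalytic domain of APOBEC3A is so close to that of APOBEC3B that short reads cannot always be told apart. The longest stretch that the reference transcripts of both genes have in common was 196 bases (GENCODE release 29, GRCh38, plus strand). In APOBEC3A it starts with the last bases of exon 2 and lies in exon 3 at chr22:38961387-38961580; in APOBEC3B it starts with the last bases of exon 5 and lies in exon 6 at chr22:38991332-38991525. It is coding in both genes. The stretch is shown because it holds the active site, whose zinc-binding histidine (codon 70 of APOBEC3A), catalytic glutamate (codon 72) and zinc-binding cysteines (codons 101 and 106) are the capitals.
APOBEC3A and APOBEC3B shared stretch: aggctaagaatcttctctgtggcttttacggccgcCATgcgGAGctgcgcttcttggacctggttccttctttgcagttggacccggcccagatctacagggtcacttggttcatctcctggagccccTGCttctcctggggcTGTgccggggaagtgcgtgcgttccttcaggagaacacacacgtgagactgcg

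Of the 1395 windows of 50 bases in the APOBEC3A transcript, 278 (19.9%) also occur in the APOBEC3B transcript and 40 in the APOBEC3G transcript. In all, 315 (22.6%) occur in 1 or more of the other members. APOBEC3B shared 35.9% of its windows with 1 or more of the other members, APOBEC3F 24.0%, APOBEC3G 19.1%, APOBEC3D 15.2% and APOBEC3C 1.16%, whereas APOBEC3H shared 0 of 997. Values of all members except APOBEC3C and APOBEC3H are therefore uncertain to the extent that reads were divided or dropped there, and the handling of such reads is not given in the sources used here.

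Recovered depth was 16294219 to 34967999 reads per library, and 80.1% to 83.2% of them fell in exons. MAPK14 RNA was still present, at 10.99 and 7.41 RPKM in knockout IL-1α libraries, 11.3 RPKM in unstimulated knockout cells, 13.3 and 14.8 RPKM in wild-type IL-1α libraries and 14.4 RPKM in unstimulated wild-type cells (RPKM, reads scaled by transcript length and library depth). Under IL-1α its log2 difference was -0.61 ± 0.22 (SE; limma, adjusted p = 0.301), and a level over the whole gene does not test for a small edit. All 15 keratinocyte markers reached 1 RPKM, with summed levels of 4299 to 5108 RPKM in the 3 knockout libraries and 6917 to 8019 RPKM in the 3 wild-type libraries. The keratins KRT17 (267 to 778 RPKM in knockout and 1745 to 2245 RPKM in wild-type libraries) and KRT14 (947 to 1171 RPKM in knockout and 1445 to 1878 RPKM in wild-type libraries) were lower in all knockout libraries. The same held for 8.86% of the 12925 genes that reached 1 RPKM in any library. KRT5 overlapped, at 712 to 919 RPKM in knockout and 752 to 1036 RPKM in wild-type libraries, and TP63, the basal keratinocyte transcription factor, reached 34.7 to 51.1 RPKM in knockout and 26.6 to 35.9 RPKM in wild-type libraries. The part of these differences in the APOBEC3 values was not tested. Among other cell types, 1 of 15 leukocyte, 2 of 8 fibroblast, 1 of 6 melanocyte and 1 of 5 endothelial markers reached 1 RPKM. In bulk RNA, fewer cells of a type and less RNA per cell cannot be told apart. The knockout IL-1α pair was the less uniform one: 5.32% of 12022 genes with a mean of at least 1 RPKM lay at least 2-fold apart between its replicates, against 1.28% of 11761 genes between the wild-type IL-1α replicates. Differences of the members between genotypes under IL-1α are given with and without knockout replicate 2, which stood lower for most of the family; values of other genes and of gene lists include it throughout.

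APOBEC3A (NM_145699; chromosome 22, 39353527 to 39359188, hg19, plus strand) encodes a single-domain deaminase and was detected almost entirely in wild-type cells. Its level was 0.477 and 0 RPKM in knockout IL-1α libraries (15 and 0 reads) and 0.060 RPKM in unstimulated knockout cells (3 reads). It was 16.8 and 8.26 RPKM in wild-type IL-1α libraries (394 and 220 reads) and 1.123 RPKM in unstimulated wild-type cells (27 reads). Every knockout library lay below every wild-type library, as it did for 8.86% of the 12925 genes analysed. The library with 0 reads allows a level of up to 0.0701 RPKM, the value of 3 reads there.

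**Figure D1:**
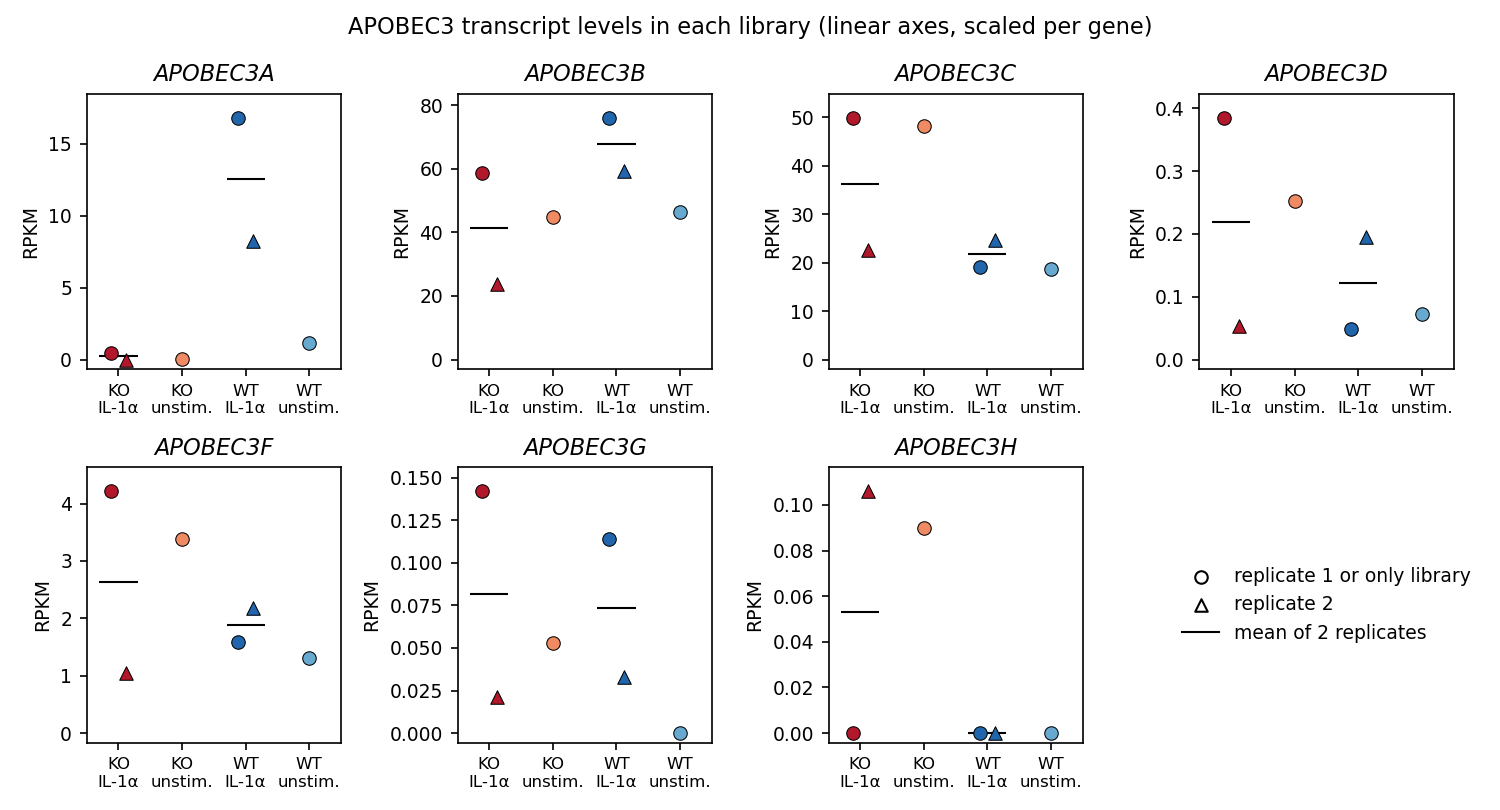
Level of each APOBEC3 gene in each library, in RPKM on a linear axis scaled per gene; points are libraries, and horizontal lines are means of the 2 replicates. APOBEC3A is high in the 2 wild-type IL-1α libraries (16.8 and 8.26 RPKM) and near 0 in all 3 knockout libraries, while APOBEC3C and APOBEC3F are high in knockout IL-1α replicate 1 and unstimulated knockout cells but not in knockout IL-1α replicate 2.

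Under IL-1α, APOBEC3A averaged 0.238 ± 0.337 RPKM in knockout cells and 12.5 ± 6.06 RPKM in wild-type cells (SD, n = 2 each). Summed reads gave a knockout over wild-type ratio of 0.0165 (exact 95% interval 0.00916 to 0.0274). Intervals of reads, here and elsewhere, reflect counting error alone, since reads without molecular identifiers are not independent molecules. On the log2(RPKM + 0.5) scale the difference was -4.14, and it was -3.66 without knockout replicate 2 and -4.62 without knockout replicate 1. It was -5.63 with a pseudocount of 0.1 in place of 0.5, 1 knockout library being at 0.

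APOBEC3A was already lower in knockout cells before stimulation, at 3 reads against 27 in wild-type cells (ratio 0.0532, exact 95% interval 0.0103 to 0.173); 5.62% of 12608 genes were at least 2-fold lower in unstimulated knockout cells. In knockout cells the IL-1α replicates stood apart: replicate 1 was at 7.99 times the unstimulated library (exact 95% interval 2.26 to 43.0), while replicate 2 had 0 reads, which leaves its ratio between 0 and 2.84. In wild-type cells both IL-1α libraries exceeded the unstimulated one, at 15.0 times its level in replicate 1 (exact 95% interval 10.1 to 23.0) and 7.35 times in replicate 2 (4.92 to 11.4). Both of them exceeded it for 27.5% of all genes analysed. Summed IL-1α reads gave a ratio to the unstimulated library of 3.38 in knockout cells (exact 95% interval 0.957 to 18.2) and 10.9 in wild-type cells (7.43 to 16.7), and the knockout interval holds the wild-type ratio. That interval joins 2 knockout replicates that stood apart and reflects counting error alone. Whether the IL-1α response of APOBEC3A differed between genotypes was not tested. All 3 knockout values lay below the pseudocount of 0.5, so no fitted knockout response is given; in wild-type cells the log2 difference was 2.92.

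In order of level, the wild-type IL-1α libraries came first, replicate 1 at 2.04 times replicate 2. They were followed by unstimulated wild-type cells, knockout IL-1α replicate 1, unstimulated knockout cells and knockout IL-1α replicate 2. Knockout IL-1α replicate 1 reached 0.425 of the unstimulated wild-type level (exact 95% interval 0.21 to 0.827). The order of the lowest libraries was within counting error. The exact 95% interval of unstimulated knockout cells was 0.0123 to 0.174 RPKM, and the 0.0862 RPKM allowed in knockout IL-1α replicate 2 lies inside it.

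APOBEC3A RNA is abundant in monocytes, so leukocyte markers are given beside it. The summed level of the 15 leukocyte markers was 6.65 and 7.85 RPKM in knockout IL-1α libraries, 5.20 RPKM in unstimulated knockout cells, 15.1 and 12.4 RPKM in wild-type IL-1α libraries and 6.42 RPKM in unstimulated wild-type cells. Most of it was CD68, a lysosomal protein, at 3.84 to 14.4 RPKM; without CD68 the sums were 0.623 to 1.36 RPKM in knockout and 0.768 to 1.14 RPKM in wild-type libraries. LYZ, GNLY and FCGR3A were at 0 in every library, and PTPRC, which encodes the pan-leukocyte antigen CD45, did not exceed 0.132 RPKM. The endothelial marker CDH5 also varied, at 10.3 and 1.84 RPKM in knockout IL-1α libraries, 2.94 RPKM in unstimulated knockout cells, 11.4 and 11.8 RPKM in wild-type IL-1α libraries and 1.45 RPKM in unstimulated wild-type cells, while PECAM1 and TEK were at 0 throughout. The part of CD68 and CDH5 in the APOBEC3A values was not tested.

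APOBEC3B (NM_004900; chromosome 22, 39378404 to 39388784), a nuclear deaminase with paired domains and the next gene downstream, was the most abundant member in 5 of the 6 libraries. Its level was 58.8 and 23.9 RPKM in knockout IL-1α libraries, 44.8 RPKM in unstimulated knockout cells, 76.1 and 59.4 RPKM in wild-type IL-1α libraries and 46.5 RPKM in unstimulated wild-type cells. Under IL-1α both knockout libraries lay below both wild-type libraries, as for 16.3% of genes (32.4% had both knockout libraries above), but knockout replicate 1 missed the lower wild-type value by less than 1 RPKM. The means were 41.4 ± 24.7 RPKM in knockout and 67.7 ± 11.8 RPKM in wild-type cells (SD, n = 2 each). The log2 difference was -0.83 ± 0.40 (SE; 95% interval -1.81 to 0.15; limma, adjusted p = 0.39), and -0.19 without knockout replicate 2. Before stimulation APOBEC3B was nearly equal in both genotypes, with a read ratio of knockout over wild type of 0.962 (exact 95% interval 0.896 to 1.03).

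In knockout cells APOBEC3B was at 1.31 times (exact 95% interval 1.24 to 1.40) and 0.534 times (0.496 to 0.575) its unstimulated level in IL-1α replicates 1 and 2, so the replicates lay on opposite sides of the unstimulated library. In wild-type cells the corresponding ratios were 1.63 (1.52 to 1.76) and 1.28 (1.18 to 1.38). The fitted IL-1α differences were -0.25 in knockout cells (limma, adjusted p = 1) and 0.53 in wild-type cells (adjusted p = 0.611), on the log2 scale. The first of them turned to 0.39 without knockout replicate 2. Neither passed the 0.05 threshold, nor did their difference of -0.78 (adjusted p = 0.966), which was -0.14 without knockout replicate 2 and -1.42 without knockout replicate 1.

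**Figure D2:**
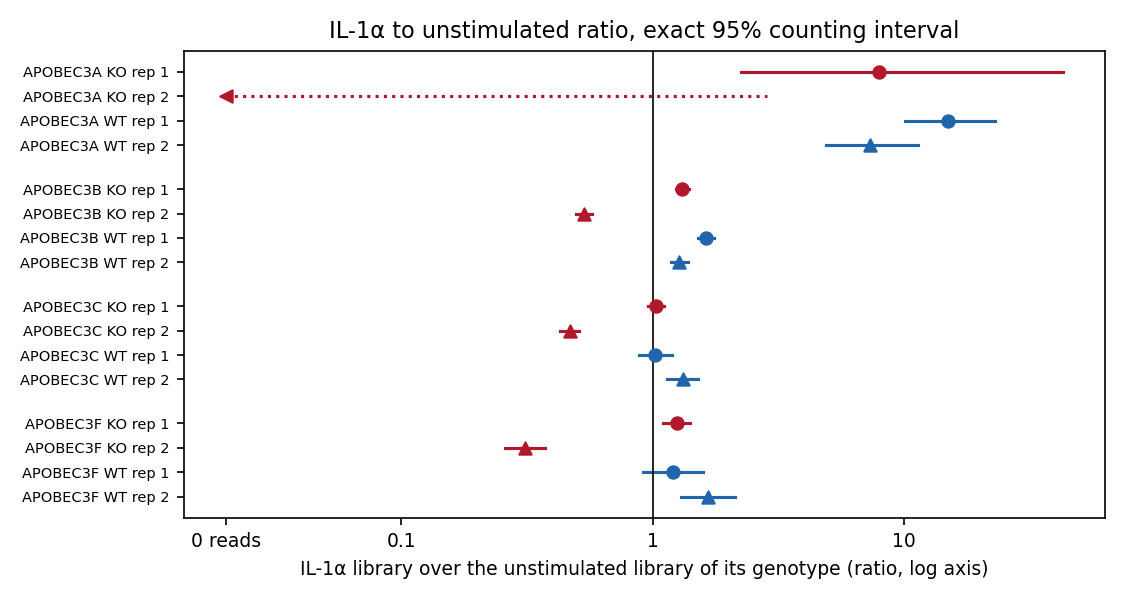
Ratio of each IL-1α library to the unstimulated library of its genotype, on a log axis, with exact 95% intervals for counting error; circles are replicate 1, triangles replicate 2, knockout red and wild type blue. The wild-type ratios of APOBEC3A (15.0 and 7.35) stand apart from those of APOBEC3B, APOBEC3C and APOBEC3F; knockout replicate 2 lies below 1 for these 3 genes, and its APOBEC3A, with 0 reads, is drawn at the left edge with a dotted interval up to 2.84.

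Further annotated transcripts overlap these genes. APOBEC3A_B, listed from the start of APOBEC3A to the end of APOBEC3B as a hybrid of the pair, stood at 13.8 and 5.73 RPKM in knockout IL-1α libraries, 8.59 RPKM in unstimulated knockout cells, 24.8 and 17.1 RPKM in wild-type IL-1α libraries and 14.1 RPKM in unstimulated wild-type cells. In knockout IL-1α replicate 2 it held 187 reads while APOBEC3A held 0. Its reads were not divided between exons of APOBEC3A and of APOBEC3B, so its level does not by itself show that a hybrid transcript was present. APOBEC3B-AS1, on the minus strand across the end of APOBEC3B, ran from 3.23 to 13.5 RPKM. Its log2 levels followed those of APOBEC3B over the 6 libraries (Pearson r = 0.988, the libraries being shared), but no strand option stands in the counting command, so reads of the antisense gene and of APOBEC3B cannot be told apart.

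APOBEC3C (NM_014508; chromosome 22, 39410265 to 39414825), a single-domain enzyme with weak antiviral activity, had the opposite genotype pattern to APOBEC3A in unstimulated cells. Its level was 50.0 and 22.6 RPKM in knockout IL-1α libraries and 48.2 RPKM in unstimulated knockout cells. It was 19.2 and 24.6 RPKM in wild-type IL-1α libraries and 18.7 RPKM in unstimulated wild-type cells. Unstimulated knockout cells and knockout IL-1α replicate 1 were thus high, and knockout IL-1α replicate 2 lay within the wild-type range. Without stimulation the knockout over wild-type read ratio was 2.58 (exact 95% interval 2.30 to 2.90). Under IL-1α the groups overlapped, at 36.3 ± 19.4 RPKM in knockout and 21.9 ± 3.82 RPKM in wild-type cells (SD, n = 2 each). The log2 difference was 0.62 ± 0.37 (SE; 95% interval -0.27 to 1.51; limma, adjusted p = 0.467); it was 1.18 without knockout replicate 2 and 0.053 without knockout replicate 1, and neither value passed.

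APOBEC3F (NM_145298; chromosome 22, 39436673 to 39451975), a paired-domain enzyme that restricts HIV lacking Vif, had 4.22 and 1.06 RPKM in knockout IL-1α libraries and 3.38 RPKM in unstimulated knockout cells. It had 1.59 and 2.18 RPKM in wild-type IL-1α libraries and 1.31 RPKM in unstimulated wild-type cells. The order of the libraries resembled that of APOBEC3C, with knockout IL-1α replicate 1 and unstimulated knockout cells highest, and knockout IL-1α replicate 2 was the lowest of all. Without stimulation the knockout over wild-type read ratio was 2.57 (exact 95% interval 2.08 to 3.21). Under IL-1α the log2 difference was 0.20 ± 0.51 (SE; 95% interval -1.04 to 1.43; limma, adjusted p = 0.883), and it went to 0.997 without knockout replicate 2 and to -0.60 without knockout replicate 1.

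APOBEC3D, APOBEC3G and APOBEC3H stayed under 1 RPKM in every library and were not tested. APOBEC3D, a paired-domain enzyme between APOBEC3C and APOBEC3F, had 0.385 and 0.054 RPKM in knockout IL-1α libraries (21 and 4 reads), 0.252 RPKM in unstimulated knockout cells (22 reads), 0.049 and 0.195 RPKM in wild-type IL-1α libraries (2 and 9 reads) and 0.072 RPKM in unstimulated wild-type cells (3 reads). Its highest libraries were the same 2 as for APOBEC3C and APOBEC3F, and its unstimulated knockout over wild-type ratio was 3.51, with a wide exact 95% interval of 1.05 to 18.3. APOBEC3G, the best known restriction factor of HIV and the main lymphocyte member, had 0 to 5 reads per library and at most 0.142 RPKM. APOBEC3H, a single-domain enzyme, had 0 to 2 reads per library and at most 0.106 RPKM, where 3 reads would have given 0.136 to 0.291 RPKM depending on the library. Differences between groups were not detectable for these last 2 genes at this depth.

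Of the 6 members other than APOBEC3A, 3 reached 1 RPKM, and 0 of these 3 passed at an adjusted p of 0.05 (limma) in any of 4 comparisons. Unadjusted, 0 had p below 0.05, and fits with voom weights gave 0 as well. Among all 12925 genes, 0.155% passed between knockout and wild type under IL-1α (0.0464% higher and 0.108% lower in knockout). For IL-1α, 0.0696% passed in knockout, all higher, and 0.217% in wild type (0.201% higher and 0.0155% lower). For the difference of the responses 0.0% passed, with 567 genes at an unadjusted p under 0.05 and 0 passing with voom weights. At shares this low, a count of 0 among 3 genes says little. The 95% intervals of every tested difference of APOBEC3B, APOBEC3C and APOBEC3F span more than a 2-fold change in at least 1 direction, so these tests do not show that the genes were alike between groups.

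**Figure D3:**
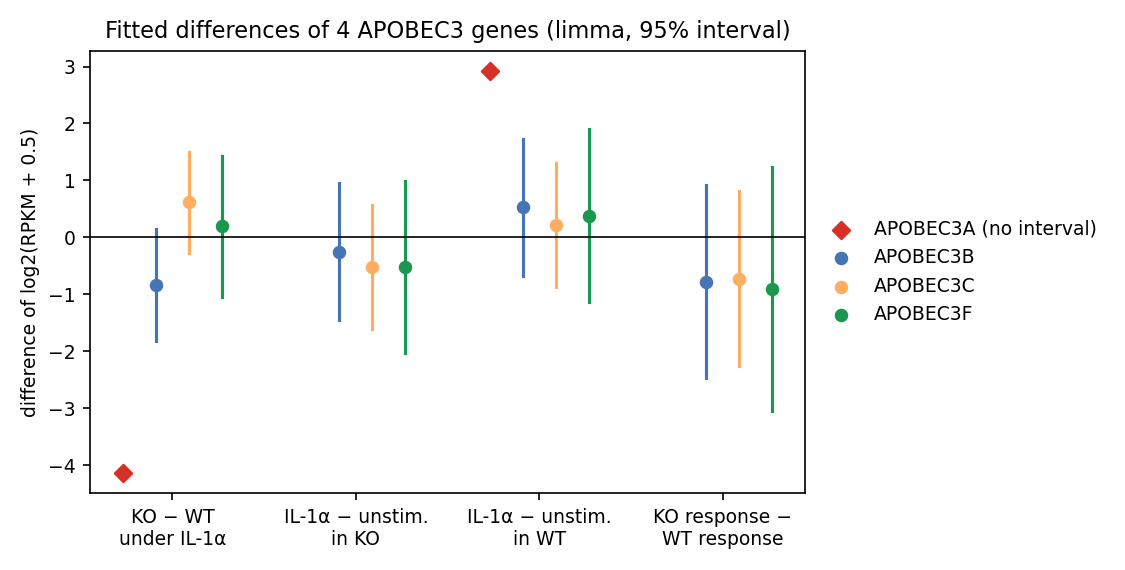
Fitted differences on the log2(RPKM + 0.5) scale for the 4 APOBEC3 genes that reached 1 RPKM, with limma 95% intervals for APOBEC3B, APOBEC3C and APOBEC3F and none for APOBEC3A. APOBEC3A lies at -4.14 between genotypes under IL-1α and at 2.92 for IL-1α in wild-type cells and is not drawn for the knockout response or for the difference of the responses, while all intervals of the other 3 genes include 0.

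Without stimulation, 2 of the 3 measurable members other than APOBEC3A (APOBEC3C and APOBEC3F) were at least 2-fold apart between genotypes, both higher in knockout cells, against 9.74% of 12608 genes whose higher library reached 1 RPKM; 4.12% were at least 2-fold higher in knockout. Each genotype had 1 unstimulated library, so this comparison has no replicate check. Within the knockout IL-1α pair, APOBEC3B, APOBEC3C and APOBEC3F were 2.46-fold, 2.21-fold and 4.00-fold lower in replicate 2 than in replicate 1, a step of at least 2-fold that 3.58% of genes showed; in the wild-type pair the share was 0.553%. APOBEC3D had 4 reads in replicate 2 and 21 in replicate 1, and APOBEC3G 1 and 5. Replicate 2 was the deeper library, with 29771208 reads, and replicate 1 had 21889289.

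The family's makeup differed between genotypes. APOBEC3B and APOBEC3C were near parity in knockout cells, with a C over B level ratio of 0.849 and 0.944 in IL-1α libraries and 1.08 without stimulation. In wild-type cells the same ratio was 0.252 and 0.414 with IL-1α and 0.402 without. APOBEC3A made up 0.418% and 0% of the summed APOBEC3 RPKM in knockout IL-1α libraries and 0.062% in unstimulated knockout cells. It made up 14.8% and 8.73% in wild-type IL-1α libraries and 1.66% in unstimulated wild-type cells. The sum of all 7 members was 114.0 and 47.7 RPKM in knockout IL-1α libraries, 96.8 RPKM in unstimulated knockout cells, 113.8 and 94.6 RPKM in wild-type IL-1α libraries and 67.7 RPKM in unstimulated wild-type cells, so that the summed level of the groups overlapped under IL-1α.

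**Figure D4:**
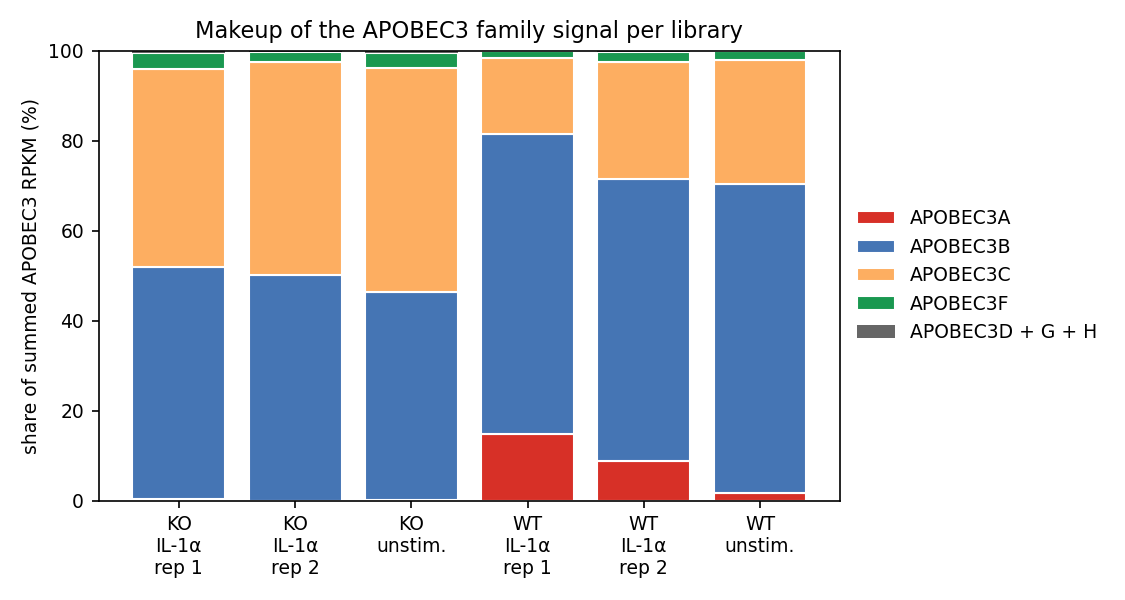
Share of each member in the summed APOBEC3 RPKM of each library, in percent. APOBEC3B and APOBEC3C take most of the signal in every library; APOBEC3C takes 43.8% to 49.8% in knockout libraries and 16.9% to 27.6% in wild-type libraries, and APOBEC3A is visible in wild-type libraries.

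Genes on either side of the cluster were set beside it: SUN2, DNAL4, NPTXR, CBX6, CBX7 and PDGFB, with the overlapping APOBEC3A_B and APOBEC3B-AS1. Of these 8 transcripts 0 passed in limma in any comparison. Under IL-1α 7 were lower in knockout cells (median log2 difference -0.22 against 0.09 over all genes). Of the 7, 2 (CBX6 and APOBEC3A_B, which overlaps APOBEC3A) had an unadjusted p under 0.05. The count and median include APOBEC3A_B (-1.16) and APOBEC3B-AS1 (-0.93), which overlap members and are not independent of them. The flanking genes alone lay at -0.06 (SUN2), -0.15 (DNAL4), 0.28 (NPTXR), -0.68 (CBX6), -0.08 (CBX7) and -0.29 (PDGFB). Of all genes, 14.9% had an unadjusted p under 0.05 in this comparison, 9.97% higher and 4.93% lower in knockout. The fitted IL-1α response of all 8 was lower in knockout than in wild type (median -0.34, against 0.10 over all genes). This median also includes APOBEC3A_B (-0.47) and APOBEC3B-AS1 (-0.58). The flanking genes ran from -1.31 (NPTXR) to -0.09 (PDGFB). Of the 8, 1 had an unadjusted p under 0.05 (limma). Of all genes 4.39% had such a p, with 0.627% lower in knockout. CBX6, a Polycomb chromobox gene upstream of APOBEC3A, had 15.3 and 12.6 RPKM in knockout IL-1α libraries, 15.7 RPKM in unstimulated knockout cells, 22.1 and 23.1 RPKM in wild-type IL-1α libraries and 15.3 RPKM in unstimulated wild-type cells. Its log2 difference under IL-1α was -0.68 ± 0.17 (SE; adjusted p = 0.195). SUN2, a nuclear envelope gene, lay at -0.06 (adjusted p = 0.937). NPTXR, a neuronal pentraxin receptor chosen after its values were seen, had 1.67 and 0.006 RPKM in knockout IL-1α libraries, 2.10 RPKM in unstimulated knockout cells, 0.43 and 0.30 RPKM in wild-type IL-1α libraries and 0.36 RPKM in unstimulated wild-type cells, so its high libraries were those of APOBEC3C.

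The pattern of APOBEC3A over the 6 libraries was compared with that of 9043 genes that reached 5 RPKM, by Pearson correlation of log2(RPKM + 0.5). These points share libraries and scaling, and the values rank genes only. The closest was MYC, the growth-promoting transcription factor (r = 0.9995), at 46.6 and 41.2 RPKM in knockout IL-1α libraries, 42.6 RPKM in unstimulated knockout cells, 77.8 and 68.8 RPKM in wild-type IL-1α libraries and 52.0 RPKM in unstimulated wild-type cells. The nucleolar GTPase gene GNL3 (r = 0.998), the retinol dehydrogenase gene DHRS9 (r = 0.997), the homeobox gene BARX2 (r = 0.996) and FST, which encodes the activin inhibitor follistatin (r = 0.994), came next. They were followed by the transporter gene SLC4A11 (r = 0.99), the epithelial splicing regulator ESRP2 (r = 0.988) and MARCKSL1, of an actin-associated protein (r = 0.988). The 8 were chosen by this likeness, so being highest in the wild-type IL-1α libraries, as APOBEC3A was, follows from the choice. DHRS9 reached 5 RPKM in wild-type IL-1α replicate 1 alone (6.23 RPKM). The steps of all 8 were smaller than those of APOBEC3A. FST stood at 147 and 111 RPKM in knockout IL-1α libraries and 112 RPKM in unstimulated knockout cells. It stood at 403 and 328 RPKM in wild-type IL-1α libraries and 197 RPKM in unstimulated wild-type cells. Within the family the log2 levels of APOBEC3A correlated with those of APOBEC3B at 0.757 and of APOBEC3C at -0.523, while those of APOBEC3C and APOBEC3F correlated at 0.918.

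**Figure D5:**
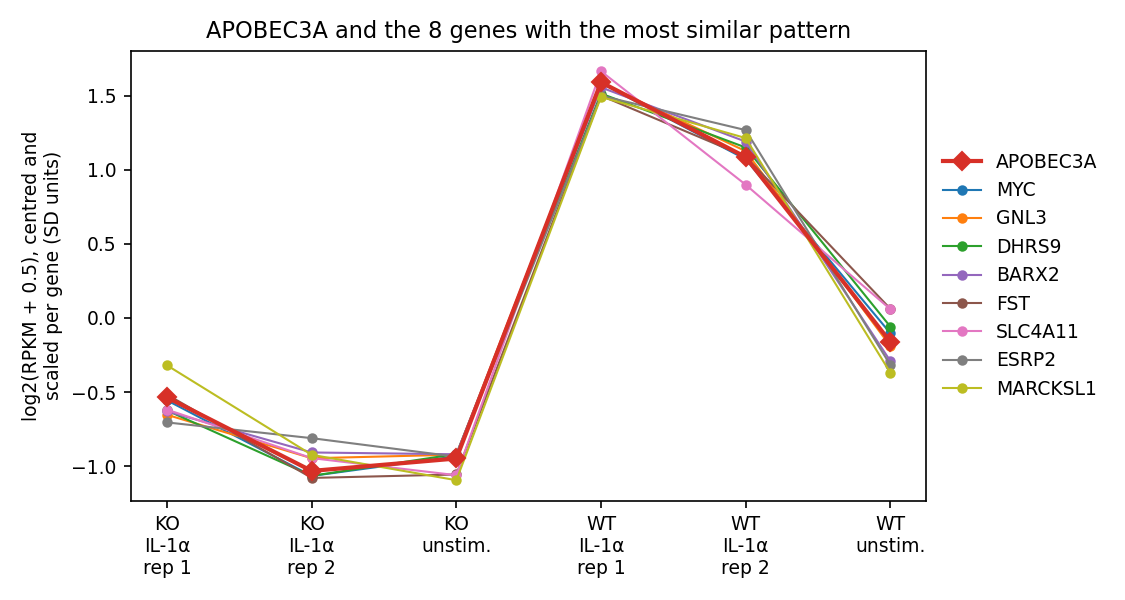
Levels of APOBEC3A and the 8 genes whose pattern was most like it, as log2(RPKM + 0.5) centred and scaled per gene to SD units, over the 6 libraries; lines join the points of 1 gene. All 9 genes are highest in wild-type IL-1α replicate 1 and lowest in a knockout library, which for the 8 follows from their choice by likeness.

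Genes that signal to the family or act with it were taken from lists. In limma 0 members of any list passed in any comparison, with or without voom weights; counts at an unadjusted p under 0.05 are given for size alone. All 10 NF-κB subunits and inhibitors were higher with IL-1α in both genotypes, with a median log2 difference of 0.76 in knockout cells (5 at an unadjusted p under 0.05) and 0.99 in wild-type cells (7 at an unadjusted p under 0.05), while all genes had medians of -0.02 and -0.14. At the same p, 3.58% of all genes stood in knockout (2.53% higher) and 18.1% in wild type (4.69% higher), so the backgrounds of these counts differ. NFKBIA, the feedback inhibitor, stood at 95.5 and 139.7 RPKM in knockout IL-1α libraries, 28.0 RPKM in unstimulated knockout cells, 119.7 and 95.1 RPKM in wild-type IL-1α libraries and 29.9 RPKM in unstimulated wild-type cells. Under IL-1α its log2 difference between genotypes was 0.11 ± 0.23 (SE, limma, adjusted p = 0.846), and that of NFKB2 was 0.05 (adjusted p = 0.933). The part of NF-κB signalling in the APOBEC3A values was not tested.

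Of 18 measured interferon signalling genes, 17 were higher with IL-1α in knockout cells (median 0.52, 7 at an unadjusted p under 0.05) and 17 in wild-type cells (median 0.52, 9 at an unadjusted p under 0.05). IFNGR1, a chain of the interferon-γ receptor, had log2 differences of 1.48 in knockout (adjusted p = 0.103) and 1.47 in wild type (adjusted p = 0.0621). IFIT3, an interferon-induced antiviral gene, had 0.42 in knockout (adjusted p = 1) and 0.93 in wild type (adjusted p = 0.135). IFNB1, the gene of interferon-β, did not exceed 0.053 RPKM. Among 25 other restriction factors against viruses and retroelements, 13 were higher with IL-1α in knockout cells (median 0.04) and 18 in wild-type cells (median 0.51). Under IL-1α 17 of the 25 were lower in knockout cells (median -0.19, against 0.09 for all genes; 7 at an unadjusted p under 0.05, 5 of them lower, beside 14.9% and 4.93% of all genes). The IL-1α response was lower in knockout for 19 of the 25 (median -0.38) and for 12 of the 18 interferon signalling genes (median -0.09). The median over all genes was 0.10. Of the 25, 4 had an unadjusted p under 0.05 (limma), all of them lower. Of all genes 4.39% had such a p, with 0.627% lower in knockout. MX1 stands in both lists, and SAMHD1 in the restriction and repair lists. For IL-1α, the log2 difference of MX1 was 1.16 in knockout and 3.02 in wild-type cells. Between genotypes under IL-1α, MX1 lay at -1.25. In that comparison 8 of the 25 restriction factors and 7 of the 18 interferon signalling genes were higher in knockout cells. MX1 was chosen after its values were seen. The most abundant restriction factors, IFITM3, which blocks viral entry, and the retroelement silencer TRIM28, had log2 differences between genotypes under IL-1α of -0.28 (adjusted p = 0.688) and 0.42 (adjusted p = 0.305).

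Of 22 E2F, DREAM-complex and MYBL2 factors, which govern cell-cycle genes and are linked to APOBEC3B, 17 were higher in knockout cells under IL-1α (median 0.25, against 0.09 for all genes; 8 at an unadjusted p under 0.05, 7 of them higher, beside 14.9% and 9.97% of all genes). TFDP1, a partner of E2F proteins, lay at 0.26 (adjusted p = 0.54) and E2F4 at -0.16 (adjusted p = 0.698). Of 16 genes for repair of uracil and abasic sites, 10 were higher in knockout cells under IL-1α (median 0.22, against 0.09 for all genes). Of the 16, 4 had an unadjusted p under 0.05 (limma), beside the same 14.9%. Of these 4, 3 were higher and 1 lower, beside 9.97% and 4.93% of all genes. APEX1, the main abasic endonuclease, lay at -0.02 (adjusted p = 0.973) and FEN1, a flap endonuclease, at 0.36 (adjusted p = 0.363). Of the other p38 kinases MAPK12 was the most abundant, with a log2 difference under IL-1α of 0.35 (adjusted p = 0.479). Other APOBEC relatives were not measurable: APOBEC1 was at 0 in every library, and APOBEC2, APOBEC4 and the APOBEC1 cofactor A1CF did not exceed 0.099 RPKM.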

How the data were processed

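The deposited table gives RPKM per gene, written FPKM in its header. Per the file headers it was made by the authors with HOMER analyzeRepeats on hg19, counting exons, with 1 line per gene; no strand option stands in the command. Per the submitters' processing notes, bcl2fastq (2.20.0.422) and STAR were used upstream. Reads were recovered from RPKM and length as the depth that turns values of 0.02 to 1 RPKM into whole reads (tolerance 0.1 read; 100% came out whole); they serve for counting intervals (95%, exact) and voom only. The 12925 genes that reached 1 RPKM anywhere entered a linear model of log2(RPKM + 0.5). It was fitted by limma (version 3.58.1, under R 4.3.3), each group having its own coefficient, with a variance trend and Benjamini-Hochberg adjustment over all of them. Residual spread came from the 2 replicated groups (2 residual and 4.2 prior degrees of freedom). A fold change on this scale understates that of low genes. In 5 runs on simulated data the fit recovered 35.2% of 2-fold and 98.8% of 4-fold changes. Each run changed 200 genes, between genotypes under IL-1α only. The simulated spread was set and not estimated from these libraries. It was the same for all genes and libraries, whereas the replicate pairs here differed in spread. These shares therefore do not tell how many such changes the fit would find here. For IL-1α in knockout cells, with 1 unstimulated library, NFKBIA lay at a log2 difference of 2.02 without passing (limma, adjusted p = 0.116). Unstimulated genotypes, 1 library each, were compared by ratio only. The members and lists were chosen with earlier results of these data known. Named genes were all members, MAPK14, the 2 most abundant members of each list (0 passed), and the 8 genes most like APOBEC3A; NPTXR, CD68, PTPRC, LYZ, GNLY, FCGR3A, CDH5, PECAM1, TEK, IFNB1, MX1, SAMHD1, APOBEC1 and APOBEC4 were added. Shared windows came from the transcript numbered first for each gene in GENCODE. Replicates were not paired by the labels beyond a number.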

Additional observations from a re-analysis of the deposited data

Results flagged for a closer look

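CBX6, a gene upstream of APOBEC3A, lay on opposite sides of its unstimulated level in the 2 genotypes, without passing a test in either. It was the only gene flagged in a search for this pattern. The search covered the members, the 2 most abundant genes of each list and the genes most like APOBEC3A. The share of all genes with the pattern was not counted, and knockout IL-1α replicate 1 was only slightly below the unstimulated library. Both knockout IL-1α libraries (15.3 and 12.6 RPKM) were below unstimulated knockout cells (15.7 RPKM), and both wild-type IL-1α libraries (22.1 and 23.1 RPKM) were above unstimulated wild-type cells (15.3 RPKM). The log2 difference for IL-1α was -0.17 ± 0.21 in knockout (SE; limma, adjusted p = 1) and 0.55 ± 0.21 in wild type (SE; adjusted p = 0.245). The difference between the responses was -0.72 ± 0.29 on the log2 scale (SE; limma, adjusted p = 0.966), which did not pass.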

How the results depend on the processing

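The count of members other than APOBEC3A past the threshold was 0 in all 4 comparisons under every alternative: pseudocounts of 0.1 and 1, no filter, median-of-ratios rescaling, no variance trend, voom weights, and each IL-1α library left out (range 0 to 0). It was also 0 with a replicate block over the 4 IL-1α libraries; replicates of equal number did not deviate together (r = 0.0086 over 12925 genes), so they share only a number. Directions turned with single libraries: with 1 library left out, the IL-1α differences in knockout cells ran from -0.89 (without knockout IL-1α replicate 1) to 0.39 (without knockout IL-1α replicate 2) for APOBEC3B, from -1.08 to 0.050 for APOBEC3C and from -1.32 to 0.28 for APOBEC3F. The genotype difference of APOBEC3F under IL-1α ran from -0.60 without knockout IL-1α replicate 1 to 0.997 without replicate 2; the cause was not tested. APOBEC3A between genotypes under IL-1α ran from -7.47 (voom weights) to -3.40 (pseudocount 1). Calls among all genes between genotypes under IL-1α were 20, but 58 with the block, 55 with voom weights, 7 with a pseudocount of 0.1, and 0 without the variance trend, without a filter, and with any 1 IL-1α library left out. For IL-1α the calls in knockout were 9, against 18 with the block, 65 without a filter (1 higher, 64 lower), 5 with a pseudocount of 1, 4 without the variance trend, 2 with voom weights and 0 with any 1 IL-1α library left out. In wild type they were 28, against 81 with the block, 53 with rescaling, 49 without a filter (2 higher, 47 lower), 11 with voom weights, 46 or 44 without knockout IL-1α replicate 1 or 2, and 0 without either wild-type IL-1α library. The difference of the responses gave 0 calls except without a filter (37 higher, 50 lower). Rescaling moved the median of all genes for IL-1α in wild type from -0.14 to 0.0014, and list medians are to be read against it. Unstimulated, 2 members stayed at least 2-fold apart under all 3 alternatives. With 1 unstimulated library per genotype, depth limits APOBEC3D, APOBEC3G and APOBEC3H.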
